A study of Mus musculus with 9 samples.

Results

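Neutrophils are the white cells that reach a wound first, and the 10 genes described here encode their surface receptors (Csf3r, Cxcr2 and Trem1), proteins stored in their granules (Ngp, Camp, Ltf, Mmp8 and Mmp9), a secreted resistin-like protein (Retnlg) and the growth factor that drives their production (Csf3). They were taken by symbol from the authors' deposited comparison tables, which list 39171 genes, and 9 of the 10 have a value in every library of the deposited matrix of 14479 genes. Csf3 is given only as the group values of the comparison tables. No measured level entered the choice of these genes by rule, but they were chosen with earlier results of these data known.

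Neutrophils are made in the bone marrow under G-CSF, the product of Csf3, which acts through the receptor encoded by Csf3r. They are released and drawn into tissue along gradients of CXC chemokines read by Cxcr2. Granule proteins are made in sequence as the cell matures, so that the genes of primary and specific granule proteins are transcribed mainly in marrow precursors, while gelatinase granule genes such as Mmp9 are transcribed later. Camp and Ngp are among the most abundant messages of immature neutrophils, and Retnlg, Cxcr2 and Csf3r are typical of mature ones.

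RNA was sequenced from the lower part of the ventricular apex of newborn CD-1 mice in 9 libraries, 3 per group, and all groups were operated on at postnatal day 1 and collected at postnatal day 2. The groups were apical resection with left vagotomy (written as resection with vagotomy), apical resection alone, and sham surgery. In apical resection the ventricle loses its tip, and in vagotomy the vagus, which carries parasympathetic fibres to the heart, is cut. The labels name no transgene, and they leave unstated how many pups or litters went into a library, so the p-values below measure only the spread between these libraries.

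Expression is in FPKM, sequenced fragments scaled for transcript length and library size, so levels can be compared between genes. How many reads lie behind a value is not known. The median gene stood at 7.52 to 8.29 FPKM per library. Resection with vagotomy replicate 3 listed 740 genes at 0, against 203 to 311 in the other 8 libraries. The heart muscle genes Myh6 and Actc1 were listed at 0 in all 3 resection with vagotomy libraries, which can be a failed estimate, so they were left out of the summed level of cardiomyocyte genes, after the values were seen. The other 6 summed to 6519 to 27396 FPKM in those libraries, 3296 to 7622 FPKM after resection and 4798 to 6796 FPKM in sham. In whole tissue, a change in the number of neutrophils and a change in RNA per neutrophil cannot be told apart.

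The promoters of the neutrophil genes are shown first, since binding sites of C/EBP factors and of PU.1 are a known feature of granulocyte genes. RefSeq's promoter table for GRCm38.p6 held 8 of the 10 genes (Mmp9 and Csf3 were not analysed here). Within the 250 bases before the RefSeq start, the C/EBP core TTNNGNAA (or its reverse complement TTNCNNAA) was found in 5 of the 8, against 36.9% of 27025 promoters searched in the same way. The PU.1 core GAGGAA (or TTCCTC) was also found in 5 of the 8, against 23.1% of the same promoters. The stretches below are written 5′ to 3′ along the gene, end before the GENCODE M21 start of the gene, and carry each match in capitals. They show Retnlg, which had the highest level of the 9 genes after resection with vagotomy, Trem1 as a receptor with both motifs, and the granule genes Mmp8, Ltf and Ngp. These are the 5 genes in which the C/EBP core was found, and Csf3r, Cxcr2 and Camp, without it, are not shown.
Retnlg, chr16:48872358-48872607, plus strand: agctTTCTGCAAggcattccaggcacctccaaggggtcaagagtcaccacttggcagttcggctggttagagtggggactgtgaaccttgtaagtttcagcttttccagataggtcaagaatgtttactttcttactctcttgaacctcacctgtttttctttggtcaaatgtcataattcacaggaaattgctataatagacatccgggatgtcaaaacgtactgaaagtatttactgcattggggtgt
Trem1, chr17:48232489-48232738, plus strand: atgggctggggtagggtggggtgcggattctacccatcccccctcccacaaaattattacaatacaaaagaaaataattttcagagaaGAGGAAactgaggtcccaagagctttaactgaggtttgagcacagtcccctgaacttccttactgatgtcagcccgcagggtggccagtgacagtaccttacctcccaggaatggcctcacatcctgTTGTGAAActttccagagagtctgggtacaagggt
Mmp8, chr9:7558179-7558428, plus strand: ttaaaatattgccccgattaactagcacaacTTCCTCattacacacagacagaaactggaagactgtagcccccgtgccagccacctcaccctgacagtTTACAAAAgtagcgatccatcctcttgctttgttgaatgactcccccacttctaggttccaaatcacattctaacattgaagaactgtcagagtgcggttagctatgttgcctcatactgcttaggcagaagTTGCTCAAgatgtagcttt
Ltf, chr9:111019042-111019270, plus strand: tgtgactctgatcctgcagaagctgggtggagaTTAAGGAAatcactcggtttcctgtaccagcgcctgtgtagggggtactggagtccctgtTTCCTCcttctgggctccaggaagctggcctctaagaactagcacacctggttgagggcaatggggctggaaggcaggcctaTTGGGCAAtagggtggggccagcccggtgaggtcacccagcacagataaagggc
Ngp, chr9:110419558-110419746, plus strand: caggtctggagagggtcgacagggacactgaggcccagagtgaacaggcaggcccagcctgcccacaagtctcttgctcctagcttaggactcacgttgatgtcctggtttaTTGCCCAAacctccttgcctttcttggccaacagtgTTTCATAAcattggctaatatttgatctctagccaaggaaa
Retnlg held 1 C/EBP core, near the far end of its window, and no PU.1 core. Ltf and Mmp8 each held 2 C/EBP cores and 1 PU.1 core, and Trem1 held 1 of each. Ngp held 3 C/EBP cores, 1 of them beyond the stretch shown. Csf3r and Cxcr2 each held 1 PU.1 core only, and Camp held neither. The motifs did not overlap each other in these windows. A match is a description of letters in a window, not of binding.

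All 3 receptor genes were higher after resection, with or without vagotomy, than after sham surgery in their group means, and Csf3r was the clearest of them. Csf3r (ENSMUSG00000028859, chromosome 4, 126024550 to 126044440, plus strand, GRCm38) encodes the receptor for G-CSF. It stood at 4.24, 4.31 and 4.70 FPKM after resection with vagotomy, at 8.26, 2.28 and 5.74 FPKM after resection, and at 0.270, 0.301 and 0.765 FPKM in sham. The lowest of the 6 resected libraries, resection replicate 2, was above the highest sham library, and the 3 libraries with vagotomy all lay inside the range of the 3 with resection alone. The means were 4.41 ± 0.248, 5.43 ± 3.00 and 0.446 ± 0.277 FPKM after resection with vagotomy, after resection and in sham (SD, n = 3 each), a ratio of means of 9.91 for resection with vagotomy over sham and of 12.2 for resection over sham. Without sham replicate 3 these ratios became 15.5 and 19.0.

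Cxcr2 (ENSMUSG00000026180, chromosome 1, 74153989 to 74161246, plus strand) encodes the receptor for neutrophil-attracting CXC chemokines. It stood at 0.705, 4.07 and 2.05 FPKM after resection with vagotomy, at 3.80, 2.18 and 3.44 FPKM after resection, and at 0.595, 0.581 and 0.847 FPKM in sham. The resection and sham libraries did not overlap, but resection with vagotomy replicate 1 lay inside the sham range. Trem1 (ENSMUSG00000042265, chromosome 17, 48232768 to 48246924, plus strand), a receptor that amplifies inflammatory signalling in neutrophils and monocytes, stood at 1.10, 0.943 and 2.28 FPKM after resection with vagotomy. It stood at 1.06, 0.273 and 4.43 FPKM after resection and at 0.0804, 0.0551 and 0.0491 FPKM in sham. All 6 resected libraries were above all 3 sham libraries, whose Trem1 levels were the lowest of any of the 9 genes. The resection mean of 1.92 ± 2.21 FPKM (SD, n = 3) rests largely on resection replicate 3.

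**Figure D1:**
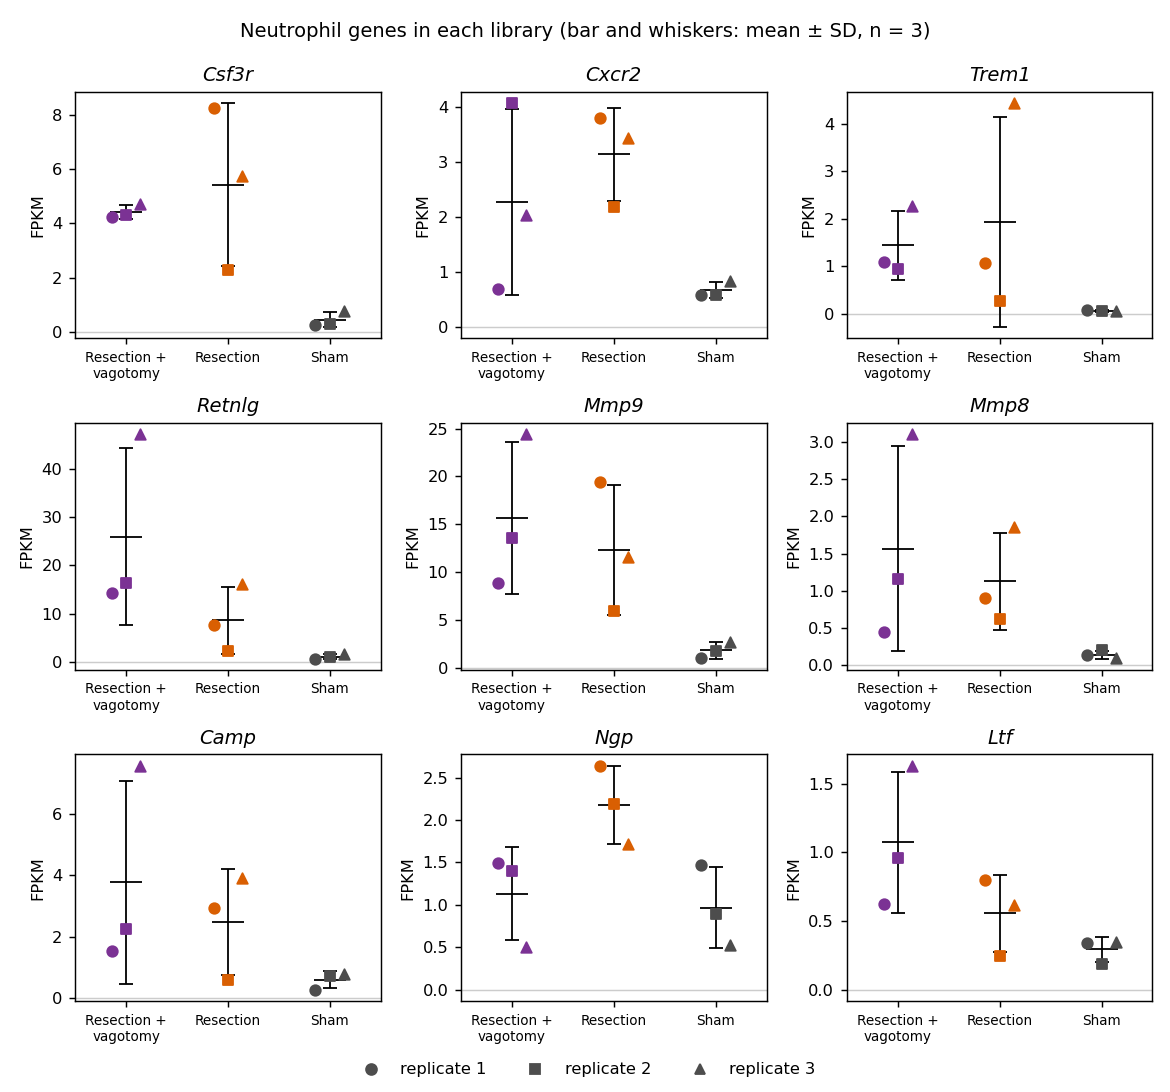
FPKM (vertical axis, linear, its own scale in each panel) of the 9 genes with a value in every library, by group, with the replicate number as the symbol and the mean ± SD (n = 3) as bar and whiskers. Csf3r, Trem1, Retnlg, Mmp9 and Mmp8 are higher in all 6 resected libraries than in all 3 sham libraries, whereas the 3 highest Ngp libraries are those with resection alone.

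The granule genes did not move alike. Mmp9 (ENSMUSG00000017737, chromosome 2, 164940780 to 164955850, plus strand) encodes gelatinase B, a matrix protease of the late-formed gelatinase granules that macrophages and other cells also make. It stood at 8.91, 13.6 and 24.4 FPKM after resection with vagotomy, at 19.5, 5.99 and 11.6 FPKM after resection, and at 1.03, 1.83 and 2.75 FPKM in sham. Every resected library was above every sham library, and the 2 resected groups overlapped. The means were 15.6 ± 7.94, 12.3 ± 6.77 and 1.87 ± 0.865 FPKM in the same order of groups (SD, n = 3 each), a ratio of means over sham of 8.36 with vagotomy and 6.60 without.

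Mmp8 (ENSMUSG00000005800, chromosome 9, 7558456 to 7568485, plus strand), the neutrophil collagenase of the specific granules, had levels near 1 FPKM. It stood at 0.447, 1.15 and 3.10 FPKM after resection with vagotomy, at 0.902, 0.618 and 1.86 FPKM after resection, and at 0.137, 0.197 and 0.0910 FPKM in sham. Again all 6 resected libraries were above the 3 sham libraries. Camp (ENSMUSG00000038357, chromosome 9, 109847379 to 109849617, minus strand), the cathelicidin antimicrobial peptide precursor, stood at 1.53, 2.24 and 7.58 FPKM after resection with vagotomy, at 2.92, 0.576 and 3.93 FPKM after resection, and at 0.271, 0.729 and 0.783 FPKM in sham. The libraries with vagotomy lay above the sham libraries, while resection replicate 2 lay inside the sham range.

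Ngp departed from the others. Ngp (ENSMUSG00000032484, chromosome 9, 110419747 to 110423012, plus strand), the neutrophilic granule protein of immature neutrophils, stood at 1.49, 1.40 and 0.501 FPKM after resection with vagotomy, at 2.64, 2.18 and 1.72 FPKM after resection, and at 1.47, 0.896 and 0.525 FPKM in sham. The 3 resection libraries were the 3 highest of all 9, and the libraries with vagotomy covered almost the same range as sham. Ltf (ENSMUSG00000032496, chromosome 9, 111019271 to 111042767, plus strand) encodes lactoferrin, the iron-binding protein of the specific granules. It stood at 0.627, 0.958 and 1.63 FPKM after resection with vagotomy, at 0.802, 0.249 and 0.617 FPKM after resection, and at 0.341, 0.189 and 0.350 FPKM in sham. The libraries with vagotomy lay above sham, and among those with resection alone only replicate 2 lay inside the sham range, as for Camp.

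Of the secreted factors, Retnlg (ENSMUSG00000022651, chromosome 16, 48872621 to 48874496, plus strand), a resistin-like protein made by mouse neutrophils, reached the highest level of the 9 genes. It stood at 14.3, 16.5 and 47.2 FPKM after resection with vagotomy, at 7.56, 2.27 and 16.1 FPKM after resection, and at 0.702, 1.12 and 1.54 FPKM in sham. All resected libraries lay above sham, and resection replicate 3 lay between resection with vagotomy replicates 1 and 2. The ratio of means over sham was 23.2 with vagotomy and 7.72 without, and that of resection with vagotomy over resection was 3.01. Without resection with vagotomy replicate 3 the ratio 23.2 became 13.8 and 3.01 became 1.78, and without resection replicate 3 the ratio 7.72 became 4.39 and 3.01 became 5.29. Csf3 (ENSMUSG00000038067, chromosome 11, 98701263 to 98703629, plus strand) was near or at 0 in the authors' deposited tables. In the table for resection against sham it is 0.0738 FPKM after resection and listed at 0 in sham, and in the table for resection with vagotomy against resection it is listed at 0 with vagotomy and 0.0710 FPKM after resection. The authors' deposited tables mark Csf3 as not tested in both, and no fold is given.

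Ordered by mean level, the genes ran Retnlg, Mmp9, Csf3r, Camp, Cxcr2, Mmp8, Trem1, Ngp and Ltf after resection with vagotomy. They ran Mmp9, Retnlg, Csf3r, Cxcr2, Camp, Ngp, Trem1, Mmp8 and Ltf after resection, and Mmp9, Retnlg, Ngp, Cxcr2, Camp, Csf3r, Ltf, Mmp8 and Trem1 in sham. The libraries of neighbours in these orders overlapped in 7 of 8 pairs after resection with vagotomy, 8 of 8 after resection and 7 of 8 in sham. The pairs that stood apart were Mmp9 above Csf3r after resection with vagotomy and Mmp8 above Trem1 in sham.

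The comparison of resection with sham asks how these genes differ a day after removal of the apex alone. The resected ventricle had lost its tip, so the piece sampled may also differ from that in sham. The part of this in the levels of these genes was not tested. All 9 had higher means after resection, and the resection libraries did not overlap sham and were higher for 7 of the 9, the exceptions being Camp and Ltf. The same was found for 6.72% of the 14479 genes of the matrix, and 4.68% were lower without overlap. The change was tested with limma on log2(FPKM + 1), a scale that understates changes of low levels, with p-values adjusted by the Benjamini-Hochberg method over the 13249 genes whose mean over the 9 libraries was at least 1 FPKM. Ltf and Mmp8 fell under that mean and were not tested. Csf3r, Cxcr2, Trem1, Ngp and Camp had sham means under 1 FPKM and passed it through the resected libraries, so counts over the 7 tested genes are descriptions.

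At an adjusted p under 0.05, 0 of the 7 were called, against 0.287% of tested genes called as higher and 0.00755% as lower, and 6 of the 7 had an unadjusted p under 0.05, against 5.89% of all tested genes. The median log2 change was 1.29 for the 7 genes and -0.01 for all tested genes. Csf3r came nearest, with a log2 change of 2.04 (SE 0.36, limma adjusted p = 0.0547), and was called without resection replicate 2, with a log2 change of 2.47 and an adjusted p of 0.0101. It was also called with a pseudocount of 0.1 (limma adjusted p = 0.0253), with quantile scaling (0.0467) and with robust moderation (0.0349). Mmp9 had a log2 change of 2.13 (SE 0.45, limma adjusted p = 0.0940) and Retnlg 1.90 (SE 0.58, adjusted p = 0.380). The log2 change was 1.29 for Cxcr2, 1.19 for Trem1, 0.99 for Camp and 0.71 for Ngp, with limma adjusted p-values of 0.353, 0.686, 1 and 0.799. With 3 libraries on each side, 0.1 is the smallest p that an exact permutation test allows.

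The authors' deposited table, made with Cuffdiff, marks 6 of the 8 members it tested as higher after resection at a q under 0.05, against 4.18% of the genes it tested. In the authors' deposited table Csf3r, Cxcr2, Retnlg, Mmp8 and Mmp9 have a q of 0.00161 and Trem1 of 0.0142. In the authors' deposited table Ngp has a q of 0.0802 and Camp of 0.0753, and Ltf is marked as not tested. The same table gives ratios of 12.2 for Csf3r and 31.4 for Trem1, whose sham value there is 0.0626 FPKM.

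Resection with vagotomy against sham asks how these genes differ after both operations together, with the same limit on the piece sampled. Csf3r, Mmp9 and Retnlg rose, so that 3 of the 7 tested genes were called, against 5.81% of tested genes called as higher and 4.26% as lower. Retnlg rose by a log2 change of 3.49 (SE 0.58, limma adjusted p = 0.0114), Mmp9 by 2.47 (SE 0.45, adjusted p = 0.0134) and Csf3r by 1.92 (SE 0.36, adjusted p = 0.0145), each higher in 3 of 3 libraries. All 3 calls were lost without sham replicate 2, with limma adjusted p-values of 0.0514 for Retnlg, 0.0635 for Mmp9 and 0.0750 for Csf3r. They were also lost without sham replicate 3, with 0.0542 for Retnlg and for Mmp9 and 0.0568 for Csf3r. Camp had a log2 change of 1.39 (limma adjusted p = 0.105), Trem1 1.16 (0.133) and Cxcr2 0.83 (0.168). Trem1 was called without resection replicate 3 (limma adjusted p = 0.0481) and with only these 6 libraries in the fit (0.0350). Ngp differed by 0.11 (SE 0.31, limma adjusted p = 0.847). The libraries of the groups did not overlap and were higher with vagotomy for 7 of the 9 genes, the exceptions being Cxcr2 and Ngp, against 19.5% of all genes in the matrix. The median log2 change was 1.39 over the 7 tested genes and 0.03 over all tested genes. This comparison shares the sham libraries with the one before.

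With both resected groups set against sham, 6 libraries against 3, the same genes Csf3r, Mmp9 and Retnlg rose, 3 of 7 tested, against 0.906% of tested genes called as higher and 0.242% as lower. The log2 change was 2.69 for Retnlg (SE 0.50, limma adjusted p = 0.0342), 2.30 for Mmp9 (SE 0.39, adjusted p = 0.0223) and 1.98 for Csf3r (SE 0.31, adjusted p = 0.0173), and each was higher in 6 of 6 libraries. An exact two-sided permutation test over libraries gave 0.0119 for each of these 3, the smallest p it can give here. That exact permutation p was 0.0357 for Cxcr2 and Mmp8, 0.0476 for Trem1, 0.0833 for Camp, 0.0952 for Ltf and 0.214 for Ngp, and 4.67% of all genes were higher with an exact p under 0.05. The groups did not overlap, with the resected libraries higher, for Csf3r, Trem1, Mmp8, Mmp9 and Retnlg, 5 of 9, against 3.67% of all genes. The 3 limma calls were lost without any 1 sham library or without resection replicate 3. Without sham replicate 2, for example, the limma adjusted p was 0.126 for Csf3r, 0.136 for Mmp9 and 0.173 for Retnlg, and without resection replicate 3 it was 0.0502, 0.0652 and 0.0625. Without resection with vagotomy replicate 2 Mmp9 had 0.0616 and Retnlg 0.0704, and Retnlg also lost the call without resection replicate 1 (0.0674) and without resection with vagotomy replicate 3 (0.0514). A pseudocount of 5 gave limma adjusted p-values of 0.0523 for Csf3r, 0.0551 for Mmp9 and 0.0753 for Retnlg.

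**Figure D2:**
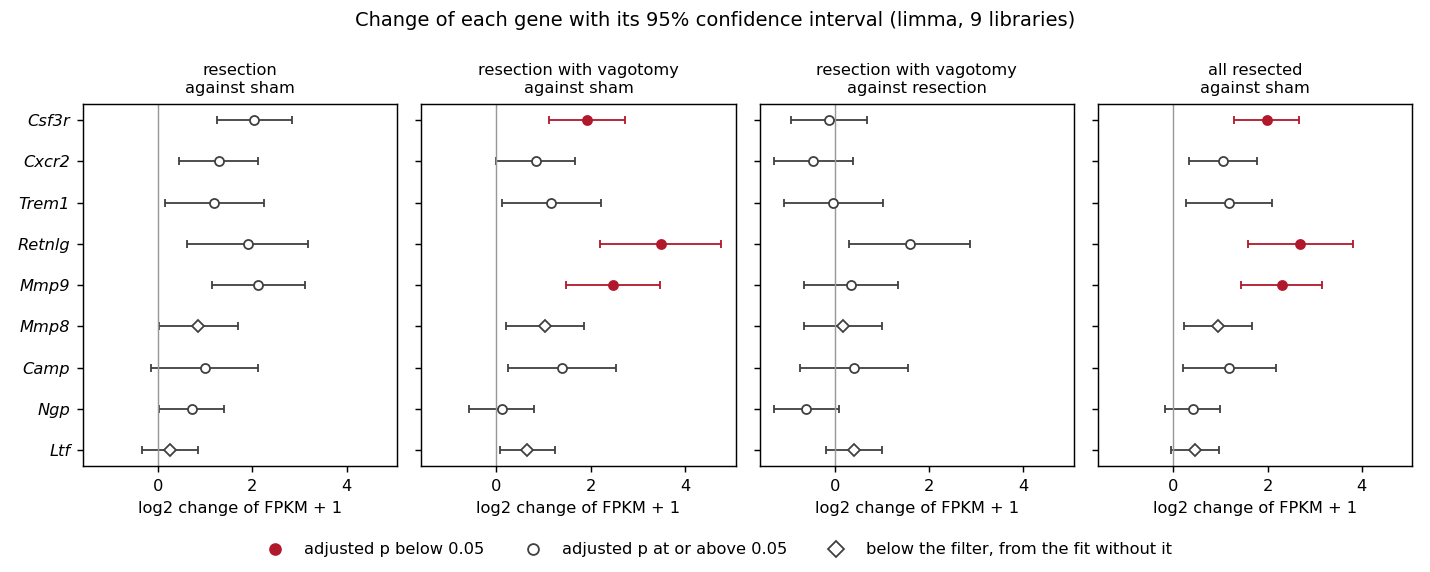
Log2 change of FPKM + 1 (horizontal axis) for each gene in 4 comparisons, with the 95% confidence interval from limma over the 9 libraries; filled red points have an adjusted p below 0.05 and diamonds mark Mmp8 and Ltf, which were below the filter and are drawn from the fit without it. Csf3r, Mmp9 and Retnlg are filled in both panels that include the libraries with vagotomy against sham, and only the Retnlg interval lies wholly above 0 in resection with vagotomy against resection.

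Resection with vagotomy against resection asks what differs when left vagotomy is added to the resection. The labels name no group with vagotomy alone or with a sham vagotomy. Loss of vagal input and the added operation therefore cannot be told apart. Called genes numbered 0 of 7, against 1.97% of tested genes called as higher and 1.55% as lower, and 1 of the 7, Retnlg, had an unadjusted p under 0.05, against 24.2% of all tested genes. Retnlg had a log2 change of 1.58 (SE 0.58, 95% confidence interval 0.30 to 2.87, limma adjusted p = 0.135), with overlapping libraries and an exact permutation p of 0.2. With the replicate number as a block, the same Retnlg change had an SE of 0.40 and a limma adjusted p of 0.0462. Genes called over the whole matrix then numbered 1277 in place of 466. No label states this pairing, and it was taken from weak correlations in these same data, described under processing. The authors' deposited table has Retnlg at 25.9 FPKM with vagotomy and 8.57 FPKM after resection with a q of 0.000995, the 1 member of 9 it calls, against 8.52% of its genes called as higher.

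For the other members the intervals of the change were wide on both sides of 0. For Csf3r the log2 change was -0.12, with a 95% confidence interval of -0.92 to 0.68, and for Trem1 it was -0.03, with -1.08 to 1.02. For Cxcr2 it was -0.45, with -1.29 to 0.38, for Camp 0.40, with -0.74 to 1.54, and for Mmp9 0.34, with -0.65 to 1.33. Ngp had a log2 change of -0.60 (95% confidence interval -1.29 to 0.08, limma adjusted p = 0.259). Its 3 libraries with vagotomy, at 0.501 to 1.49 FPKM, were all below the 3 after resection, at 1.72 to 2.64 FPKM, with an exact permutation p of 0.1, the smallest that 3 against 3 allows. Ngp was the 1 gene of 9 whose libraries were lower without overlap, against 11.9% of all genes, and 0 of 9 were higher without overlap, against 13.6%. The median log2 change was -0.03 for the 7 tested genes and 0.02 for all tested genes. This comparison shares the resection libraries with that of resection against sham.

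The spread inside the resected groups followed particular libraries. Resection replicate 2 was the lowest of its group for 8 of the 9 genes, the exception being Ngp. Resection with vagotomy replicate 3 was the highest of its group for 7 of the 9, the exceptions being Cxcr2 and Ngp, and for Ngp it was the lowest. Resection with vagotomy replicate 1 was the lowest for 7 of the 9. Summed over the 3 receptor genes, the levels were 6.04 to 9.33 FPKM after resection with vagotomy, 4.73 to 13.6 FPKM after resection and 0.937 to 1.66 FPKM in sham.

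**Figure D3:**
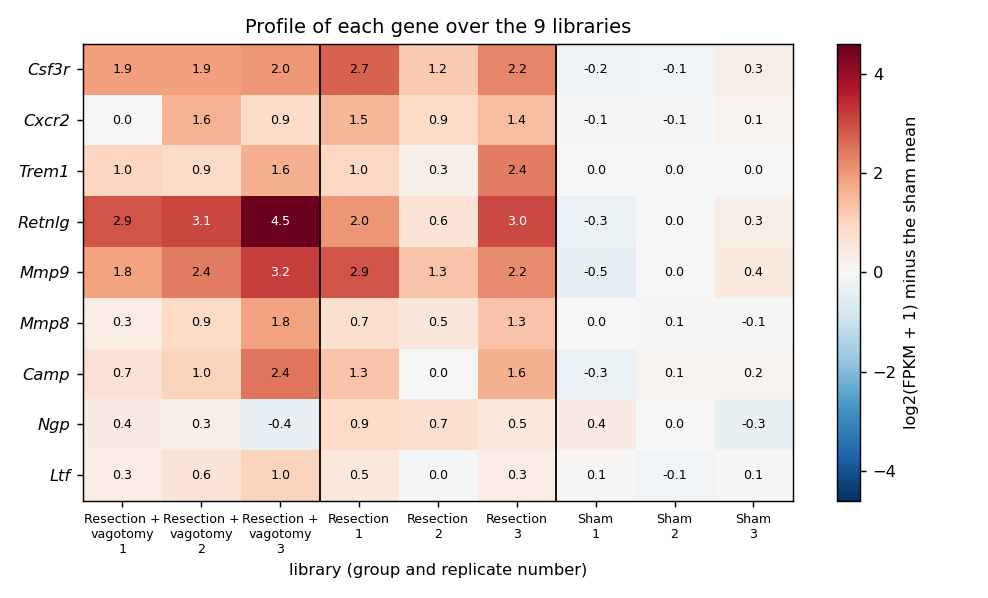
Log2(FPKM + 1) of each gene (rows) in each library (columns, by group and replicate number) minus the mean of its 3 sham libraries, as colour and as the printed value. Retnlg and Mmp9 are darkest in resection with vagotomy replicate 3, and resection replicate 2 is pale in most rows. Ngp is the row in which the 3 libraries with resection alone are the 3 highest.

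Likeness between genes was described by the root mean square difference between profiles of log2(FPKM + 1) over the 9 libraries, each centred on its sham mean. Among members the closest pairs were Camp and Mmp8 at 0.385, Trem1 and Mmp8 at 0.427, Trem1 and Camp at 0.430 and Csf3r and Mmp9 at 0.454, and the most distant was Ngp and Retnlg at 2.27. Neighbours were sought among tested, named genes whose range over the libraries was at least 0.5 times the member's, which left 5388 for Csf3r, 2949 for Mmp9, 11226 for Ngp and 11429 for Ltf. Of these the nearest to Csf3r were Adam8, a metalloprotease-disintegrin of myeloid cells (0.281), the oxidase subunit gene Ncf4 (0.310), the leukotriene receptor gene Ltb4r1 (0.317) and Alox5ap, which is needed to make leukotrienes (0.335). Nearest to Mmp9 were the leukocyte integrin chain gene Itgb2 (0.297), Alox5ap (0.393), the oxidase subunit gene Ncf1 (0.447) and Csf3r itself. The profiles nearest to Ngp were those of Bmf, Slc35a2, Cited2 and Tmem66 at 0.144 to 0.230, and nearest to Ltf were Tpcn2, Hax1, Ppm1m and Iba57 at 0.0693 to 0.125. All profiles come from the same 9 libraries, so these likenesses are descriptions only.

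Ratios within a library do not depend on its scaling. Retnlg over Csf3r was 3.39, 3.82 and 10.04 after resection with vagotomy, 0.916, 0.997 and 2.80 after resection, and 2.60, 3.704 and 2.01 in sham. All 3 libraries with vagotomy were above all 3 with resection alone, while sham overlapped both. Mmp9 over Csf3r was 2.103, 3.15 and 5.19 after resection with vagotomy, 2.36, 2.63 and 2.02 after resection and 3.80, 6.07 and 3.60 in sham. For Cxcr2 over Csf3r the ratio was 0.166, 0.946 and 0.436 with vagotomy, 0.460, 0.960 and 0.5997 after resection and 2.20, 1.93 and 1.11 in sham, so that every resected library was below every sham library. Camp over Ngp was 1.02, 1.60 and 15.1 with vagotomy, 1.11, 0.264 and 2.29 after resection and 0.184, 0.814 and 1.49 in sham, with the 1 high value in resection with vagotomy replicate 3.

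The calprotectin subunit genes S100a8 and S100a9, also major neutrophil messages, differed from each other between the resected groups. S100a8 stood at 35.7, 60.4 and 32.3 FPKM after resection with vagotomy, at 203, 178 and 114 FPKM after resection, and at 11.4, 20.3 and 30.9 FPKM in sham, and it fell with vagotomy relative to resection by 1.94 on the log2 scale (SE 0.39, limma adjusted p = 0.0344). That call was lost without any 1 of resection replicates 1 and 2, resection with vagotomy replicates 1 and 3, and sham replicates 2 and 3, with limma adjusted p-values of 0.0530 to 0.129. S100a9 stood at 50.8, 157 and 213 FPKM after resection with vagotomy, at 57.8, 23.0 and 55.5 FPKM after resection, and at 4.90, 6.29 and 6.84 FPKM in sham, and like Retnlg it had a positive log2 change with vagotomy relative to resection that was not called (1.49, SE 0.51, limma adjusted p = 0.119). Retnlg over S100a8 was 0.402, 0.273 and 1.46 with vagotomy, 0.0373, 0.0128 and 0.141 after resection and 0.0617, 0.0551 and 0.0499 in sham, so the libraries with vagotomy lay above all 6 others.

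**Figure D4:**
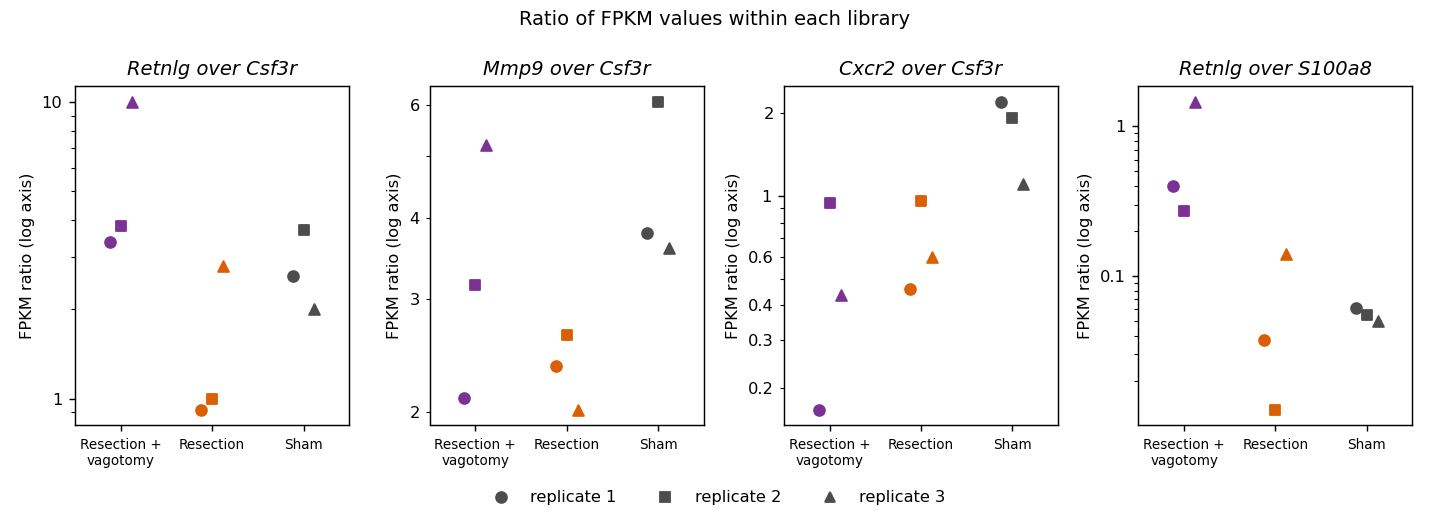
Ratios of FPKM values within each library (vertical axes, logarithmic) by group, with the replicate number as the symbol. Retnlg over Csf3r and Retnlg over S100a8 are higher in all 3 libraries with vagotomy than in all 3 with resection alone, and Cxcr2 over Csf3r is lower in all 6 resected libraries than in sham.

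Other genes of neutrophil biology, 66 on 7 lists of which 49 were tested, were counted in the same 4 comparisons. In all resected against sham 22 of the 49 rose and 0 fell, against 0.906% of all tested genes called as higher. In resection with vagotomy against sham 24 rose and 0 fell, against 5.81%, and in resection against sham 7 rose and 0 fell, against 0.287%. Of the 49, 25 had sham means under 1 FPKM and passed the filter through the resected libraries, among them 10 of the 22, 12 of the 24 and 2 of the 7, so these counts are descriptions. Between the resected groups 0 rose and 2 fell with vagotomy, against 1.97% of all tested genes higher and 1.55% lower. They were S100a8 and the stefin gene Stfa2 (log2 change -1.89, SE 0.42, limma adjusted p = 0.0408). When libraries were left out 1 at a time, the Stfa2 call held only without sham replicate 1. With the replicate block 3 of the 49 were called, S100a8, Stfa2 and, as higher, Slc11a1 (log2 change 1.22, limma adjusted p = 0.0343), and without resection replicate 1 the call was Cyba, an oxidase subunit gene, as higher (1.83, limma adjusted p = 0.0338). Slc11a1 and Cyba are named here after their values were seen. Leaving out single libraries moved the 22 to between 3 and 24: it was 4, 3 and 7 without sham replicates 1, 2 and 3, 14 and 12 without resection replicates 1 and 3, and 9 without resection with vagotomy replicate 2. It moved the 24 to 3 and 7 without sham replicates 2 and 3 and to 13 without resection with vagotomy replicate 3, and the 7 to between 0 and 14.

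Among other receptors and adhesion molecules of neutrophils, 9 of 16 tested genes rose in all resected against sham, with a median log2 change of 1.59 against 0.01 over all tested genes. They included C5ar1, the receptor for complement C5a, at 2.32 (limma adjusted p = 0.00107), the shared cytokine receptor chain gene Csf2rb at 1.84 (0.00245) and the integrin chain gene Itgam at 2.59 (0.0112). Of other granule and cytosol proteins 8 of 13 rose, with a median of 2.02. The lysozyme gene Lyz2 rose by 2.41 (limma adjusted p = 0.00543), the second calprotectin gene S100a9 by 3.37 (0.00677) and Slc11a1, a metal transporter of phagocyte granules, by 2.24 (0.0171). Of the 6 genes of the phagocyte NADPH oxidase, which makes superoxide, 3 rose: Rac2 by 1.39 (limma adjusted p = 0.0152), Ncf1 by 2.23 (0.0460) and Ncf4 by 1.68 (0.0488). Itgam, Lyz2, Slc11a1 and the oxidase genes are also expressed by macrophages.

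The list of ligands that draw or expand neutrophils included 1 called gene of 7 tested, with a median of 1.57. It also holds Csf1, the gene of macrophage colony-stimulating factor, the largest part of its sum in sham. Csf1 had log2 changes against sham of 0.87 after resection and of 0.39 with vagotomy, where its libraries overlapped sham. Ppbp, a platelet chemokine, rose by a log2 change of 1.52 (limma adjusted p = 0.0488), while Cxcl2, a ligand of Cxcr2, had 1.72 (0.0587) and Il1b, the gene of interleukin-1 beta, 1.82 (0.0970). Cxcl2 was listed at 0 in sham replicates 1 and 2. Of the other CXC ligands tested, Cxcl1 had a log2 change of 0.64 (limma adjusted p = 0.523) and Cxcl5 1.57 (0.337). The libraries of both overlapped sham after resection and with vagotomy. With vagotomy Cxcl1 had a log2 change against sham of 0.13, and Cxcl5 reached 29.9 FPKM in resection replicate 3 only. Cxcl3 had 1.61 (limma adjusted p = 0.0996), with every resected library above sham. Of 4 endothelial adhesion genes, which hold neutrophils at the vessel wall, Icam1 rose by 1.21 (limma adjusted p = 0.0338), and Selp had 1.14 (0.0686) and Sele 0.65 (0.296). Vcam1 did not rise with them. Its log2 changes against sham were 0.24 after resection and 0.05 with vagotomy, with overlapping libraries. Of the transcription factors of neutrophil development 0 of 3 tested were called (3 of 3 had an unadjusted p under 0.05 by limma, against 16.2% of all tested genes). Cebpb had a log2 change of 2.00 (limma adjusted p = 0.137), Cebpa 0.92 (0.2504) and Spi1, which encodes PU.1, 0.95 (0.284). Cxcl2 was called without resection replicate 2 (limma adjusted p = 0.0492) or resection with vagotomy replicate 2 (0.0447), with a pseudocount of 0.1 (0.0159), with quantile scaling (0.0498), with robust moderation (0.0429) and with the replicate block (0.0442). Il1b was called without resection replicate 3 (limma adjusted p = 0.0289) and with a pseudocount of 0.1 (0.0288), Selp with that pseudocount (0.0496) and Cebpb with the block (0.0208). Of these list genes C5ar1, Csf2rb and S100a9 kept a limma adjusted p under 0.05 whichever library was left out. Lyz2 lost it without sham replicate 2, Itgam without sham replicate 1 or 2, and Slc11a1 and Rac2 without any 1 sham library. Ncf1 and Icam1 kept it only without resection replicate 2 or resection with vagotomy replicate 3, Ncf4 only without resection replicate 2 and Ppbp only without resection with vagotomy replicate 1.

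Of the 4 primary granule genes 0 reached the mean for testing. Prtn3, which encodes proteinase 3, stood at 1.17, 0.861 and 1.03 FPKM after resection with vagotomy and at 1.72, 0.204 and 1.03 FPKM after resection, levels like those of Trem1 and Ltf, and at 0.463, 0.133 and 0 FPKM in sham. The sham libraries overlapped resection replicate 2. In the authors' deposited tables Mpo, the myeloperoxidase gene, is 0.602 FPKM after resection with vagotomy, 0.517 FPKM after resection and 0.0903 FPKM in sham. The same tables list Elane, neutrophil elastase, at 0, 0.119 and 0 FPKM and Ctsg, cathepsin G, at 0, 0.0606 and 0 FPKM in that order of groups. For the precursor factors Cebpe and Gfi1 the authors' deposited values are 0.266 and 0.0610 FPKM after resection with vagotomy, 0.248 and 0.0861 FPKM after resection, and 0.0218 and 0.0210 FPKM in sham.

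Summed levels of macrophage and platelet markers were higher in the same libraries as the neutrophil genes, while those of mast cells and fibroblasts overlapped between all groups. The summed level of the 11 of 12 monocyte and macrophage genes with values was 98.3 to 108 FPKM after resection with vagotomy, 59.0 to 113 FPKM after resection and 24.5 to 30.1 FPKM in sham, so that all 6 resected libraries were above sham. By mean, Cd14 was the largest part of this sum in both resected groups, at 40.7 FPKM with vagotomy and 29.3 FPKM after resection. Its sham mean was 1.92 FPKM. In all resected against sham 4 of the 10 macrophage genes tested rose and 0 fell, against 0.906% of all tested genes called as higher. Positive changes were found for 8 of the 10. Mrc1 and Lyve1 did not rise with the sum. Their log2 changes against sham were 0.12 and -0.06 after resection and -0.18 and -0.20 with vagotomy, with overlapping libraries. The 5 of 8 platelet genes with values summed to 12.3 to 23.3, 17.0 to 51.2 and 5.13 to 7.40 FPKM in the same order of groups. In all resected against sham 1 of the 5 rose, Ppbp, which is also on the ligand list, and 5 of 5 had positive changes. Pf4 overlapped sham with vagotomy (log2 change 0.66), and Gp1bb did so after resection (0.36) and with vagotomy (0.55). Itga2b, at 9.86 FPKM, was the largest part of the sum in resection with vagotomy replicate 3. The 7 of 8 red cell genes with values summed to 362 to 655 FPKM with vagotomy, 794 to 4352 FPKM after resection, where replicate 1 was the high library, and 439 to 1354 FPKM in sham. By this sum, of which Hbb-bs was the largest part, the libraries with vagotomy were below those with resection alone and both overlapped sham. Hba-a2 went the other way, at means of 101 FPKM with vagotomy, 40.1 FPKM after resection and 21.8 FPKM in sham. It was the 1 gene of 6 tested with a positive log2 change between the resected groups (1.54, limma adjusted p = 0.130). With vagotomy against sham it rose by 2.31 (limma adjusted p = 0.0313). Of the mast cell genes 4 of 7 had values, summing to 5.90 to 10.7, 5.18 to 9.70 and 5.04 to 11.3 FPKM. Eosinophil and lymphocyte genes had no value in the matrix, and their highest group values in the authors' deposited tables are 0.270 and 0.642 FPKM. All 6 fibroblast genes had values and summed to 1263 to 1430, 1027 to 1457 and 1129 to 1683 FPKM, with overlapping groups. The part of macrophages and platelets in the levels of genes they also express, such as Mmp9, Trem1 and Ppbp, was not tested.

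**Figure D5:**
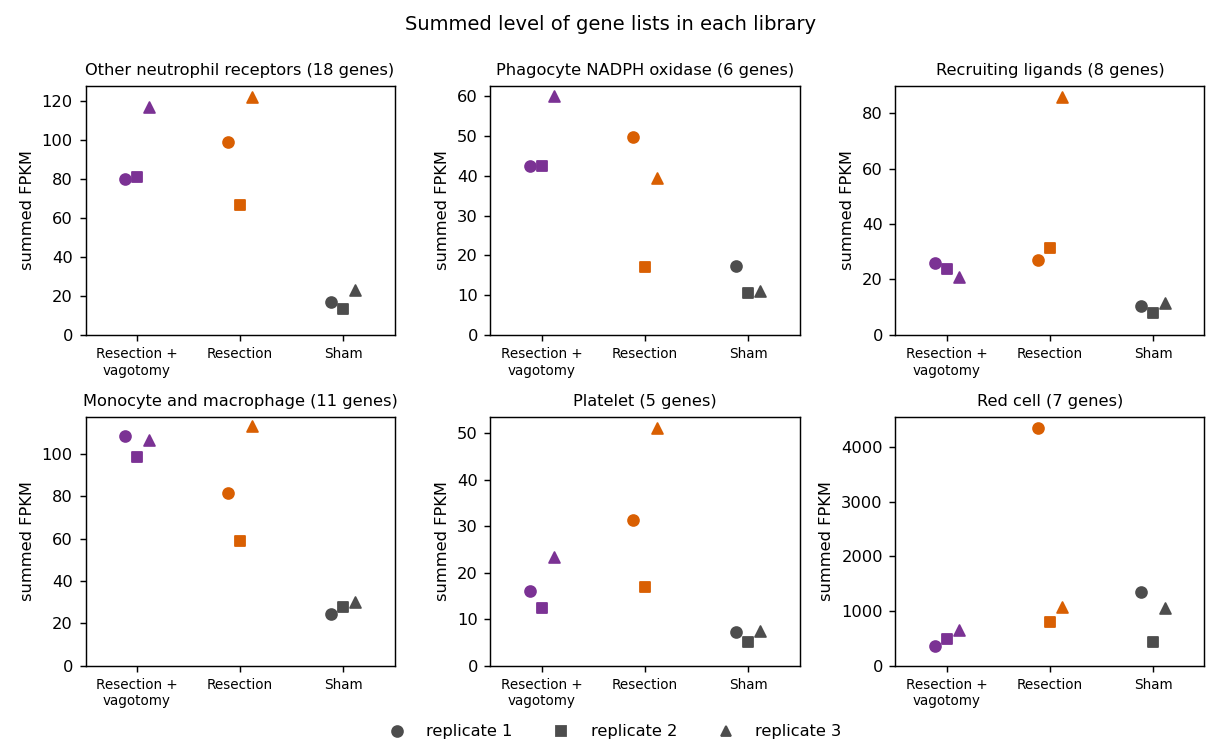
Summed FPKM (vertical axes, linear from 0) of 6 gene lists in each library by group, with the replicate number as the symbol. The sums for other neutrophil receptors, recruiting ligands, monocyte and macrophage genes and platelet genes are higher in all 6 resected libraries than in sham. The oxidase sum overlaps at resection replicate 2. The red cell sum, whose largest part is Hbb-bs, is lower in all 3 libraries with vagotomy than in those with resection alone. Both groups overlap sham there. Csf1 is the largest part of the recruiting ligand sum in sham.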

How the data were processed

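RNA from the ventricular apex of newborn mice was sequenced in 9 libraries, 3 per group, and groups were taken from the labels. Per the submitters' processing notes the genome was GRCm38 and the authors' tools were TopHat2 (2.0.9), Cufflinks (version 2.1.1) and Cuffdiff (version 2.1.1). The authors' deposited matrix holds FPKM with 1 added, which was subtracted, and every gene in it reaches at least 1 FPKM in some library. The authors' deposited comparison tables give group FPKM with a p-value and q-value from Cuffdiff for 2 comparisons. No whole reads could be recovered from the FPKM values (at most 45.7% lay within 0.1 of a whole multiple), so depth and counting error are unknown and no count test was run.

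Values were taken as log2(FPKM + 1) and fitted with limma 3.58.1 in R 4.3.3 over all 9 libraries, with 1 mean per group and a mean-variance trend. Tests were two-sided, over the 13249 genes averaging 1 FPKM or more, with Benjamini-Hochberg adjustment and a threshold of 0.05. Single genes also had an exact two-sided permutation test over libraries. Gene positions came from GENCODE M21, which held 14307 of the 14479 identifiers; all 10 members overlapped their deposited locus and shared it with 0 other genes. The scripts were tested on simulated data. The members and gene lists were chosen with earlier results of these data known.

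Named genes are the 10 members, up to 3 genes of each neutrophil-related list with the smallest p in all resected against sham together with all genes past the threshold where a list had 5 or fewer, and the 4 profiles nearest to Csf3r, Ngp, Ltf and Mmp9. S100a8 and Stfa2 are also named, as the list genes called in resection with vagotomy against resection. Further list genes, such as Vcam1, Cxcl1 and Cybb, are named to show how a list or its sum was made up, after their values were seen. Ratios within libraries were chosen after the values were seen.

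The groups share replicate numbers in the labels, with no statement that a number marks a litter or day. The submitters' own sample codes give the last replicate of each group a different number. Deviations of same-numbered libraries from their group means correlated across genes with r of 0.199, 0.142 and 0.117 between resection with vagotomy and resection. The values were 0.186, 0.170 and -0.02 between resection with vagotomy and sham, and 0.498, 0.197 and 0.01 between resection and sham. Most of these values are low, and the numbers were taken as a possible pairing for an alternative fit only. That fit blocked all 9 libraries by replicate number, the sham libraries included.

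Alternatives were leaving out the libraries 1 at a time, pseudocounts of 0.1 and 5, no filter or a minimum mean of 5 FPKM, quantile or upper-quartile scaling, robust moderation, a replicate block, only the groups compared, and a q of 0.01 in the authors' tables.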

Additional observations from a re-analysis of the deposited data

How the results depend on the processing

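Under the alternatives the direction of Csf3r, Cxcr2, Trem1, Camp, Mmp9 and Retnlg against sham was kept in all 3 comparisons with sham. The number of members called in resection against sham, 0 as reported, was 1 with a pseudocount of 0.1, quantile scaling or robust moderation, each time Csf3r, and 0 to 1 when single libraries were left out. Between resection with vagotomy and resection it was 1 with a replicate block and 0 in every fit that left out a library. In resection with vagotomy against sham it was 0 to 4 without single libraries. In all resected against sham it was 0 with a pseudocount of 5 and 0 to 3 without single libraries. The replicate block changed no other call among the members.

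Genes called in resection against sham, 39 as reported, numbered 66 and 23 with pseudocounts of 0.1 and 5, 74 with robust moderation, 13 with only the groups compared, and 11 to 59 without single libraries. Between resection with vagotomy and resection 466 became 1277 with a replicate block, 29 with only the groups compared and 42 to 591 without single libraries. In resection with vagotomy against sham 1334 became 2413 with a replicate block and 100 to 1701 without single libraries. In all resected against sham 152 became 92 with a pseudocount of 5, 99 with a mean of at least 5 FPKM, 299 with a replicate block and 27 to 270 without single libraries. The other neutrophil-related genes called in resection against sham, 7 as reported, numbered 15 and 4 with pseudocounts of 0.1 and 5, 13 with robust moderation, 2 with only the groups compared and 0 to 14 without single libraries. Between resection with vagotomy and resection 2 became 1 with a pseudocount of 0.1, 0 with only the groups compared and 0 to 2 without single libraries. For resection with vagotomy against sham 24 became 15 with a pseudocount of 5, 13 with a mean of at least 5 FPKM (20 tested) and 3 to 26 without single libraries. In all resected against sham 22 became 9 with a pseudocount of 5, 12 with a mean of at least 5 FPKM and 3 to 24 without single libraries. The cause of these shifts was not tested, beyond the fewer genes or libraries that some alternatives hold.

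Some changes near 0 turned sign. Between resection with vagotomy and resection, the log2 change of Trem1 was 0.20 with a pseudocount of 0.1. Without single libraries it ran from -0.50 to 0.55 for Trem1, from -0.55 to 0.20 for Csf3r, from -0.13 to 0.76 for Camp and from -0.057 to 0.72 for Mmp9, and the change of Ngp with both operations against sham from -0.061 to 0.34. At a q of 0.01 the authors' tables call 5 members in resection against sham and 1 in resection with vagotomy against resection. Depth being unknown, the precision of the low levels, most of all Trem1, Mmp8 and Ltf in sham, could not be set, and 3 libraries per group limit every test.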
